A study of Homo sapiens with 48 samples.

Results

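The 39 genes described here carry out homologous recombination, act in the Fanconi anaemia pathway, or encode the kinases that signal DNA damage to both. They were chosen by symbol, and all 39 were found among the 48898 Ensembl genes of the deposited table of messenger RNA counts. The series holds 48 libraries in 16 groups of 3, and asks how silencing of the mitofusins MFN1 and MFN2 or of MAVS, or compounds aimed at the mitofusins, change cells made senescent with doxorubicin. Senescence is a lasting arrest of the cell cycle. IMR-90 is a strain of fibroblasts from fetal lung, and the tumour cells, SK-MEL-103, come from a melanoma. Each stands for 1 genetic background, and the labels do not say whether the 3 libraries of a group came from separate cultures. The p-values therefore measure the spread between these libraries, which may be technical.

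In each line, proliferating cells with the negative control siRNA (cNEG) were set beside cells given cNEG, siMFN1, siMFN2, siMFN1 together with siMFN2 (siMFN1+2) or siMAVS. Those 5 groups then received doxorubicin at 200 nM for 48 h and were harvested on day 7. A separate IMR-90 experiment had proliferating cells in the solvent DMSO, and doxorubicin-treated cells that received DMSO, MFI8 at 20 µM or BI at 10 µM for a further 48 h before harvest on day 9. All senescent groups carry the same doxorubicin treatment, and no group received an siRNA or a compound without it other than the proliferating controls. MFI8 was given as a mitofusin inhibitor and BI as a mitofusin activator. Both are known here by these names only.

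Homologous recombination repairs broken DNA by copying the sister chromatid. Nucleases trim the broken ends to single strands, BRCA2 with PALB2 and BRCA1 loads a recombinase onto them, paralogs of that recombinase and motor proteins steady and move the filament, and the BLM complex dissolves the joined molecules. The Fanconi pathway handles crosslinks between the DNA strands: a core complex with the E2 enzyme UBE2T attaches ubiquitin to the clamp of FANCD2 and FANCI, which brings in helicases and nucleases. Because a sister chromatid exists only after replication, recombination is used in S and G2 phase, and many of its genes are known to be transcribed in those phases and repressed when cells leave the cycle. Doxorubicin traps topoisomerase II on DNA and leaves breaks.

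The stretch of 100 bases before the start site is shown for 5 members that differ in how far they later fell, so that their letters can be set beside their values. Sequences and starts are those of RefSeq on GRCh38.p14, read 5′ to 3′ along the gene, with capitals on words that E2F factors are known to bind (TTTGGCGC, TTTCCCGC, TTTGCCGC, TTTCGCGC or TTCCCGCC) and on CCAAT, in either direction. These 5 were picked after their values were seen, from the 10 members of 35 with an entry whose window holds no annotated exon.
RAD54L (chr1:46247588-46247687, plus strand): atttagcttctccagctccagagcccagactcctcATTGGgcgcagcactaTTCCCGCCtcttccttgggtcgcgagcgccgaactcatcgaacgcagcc
FANCC (chr9:95317710-95317809, minus strand): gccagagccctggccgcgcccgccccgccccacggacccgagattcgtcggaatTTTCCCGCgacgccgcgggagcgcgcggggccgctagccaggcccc
BRIP1 (chr17:61863529-61863628, minus strand): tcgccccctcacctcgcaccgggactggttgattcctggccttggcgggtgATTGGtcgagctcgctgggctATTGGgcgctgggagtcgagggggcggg
RAD51C (chr17:58692473-58692572, plus strand): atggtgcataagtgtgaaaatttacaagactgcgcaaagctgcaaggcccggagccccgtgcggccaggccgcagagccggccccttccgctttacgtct
FAN1 (chr15:30903752-30903851, plus strand): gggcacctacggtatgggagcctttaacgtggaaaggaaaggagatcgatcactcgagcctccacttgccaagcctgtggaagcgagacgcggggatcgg
RAD54L has an E2F word beginning 49 bases before the start and CCAAT in reverse 65 bases before it. FANCC has an E2F word at 46 bases and no CCAAT in the window, BRIP1 has CCAAT in reverse with the farther match at 49 bases, and the windows of RAD51C and FAN1 hold no match.

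Libraries held 15206115 to 79204217 counts, and depth followed the replicate number, with replicate 1 the deepest in every group. The fewest counts of any member in any library were 8, and all 39 members passed the filter on low counts in each experiment. Against the senescent control, MFN1 stood at 14.9% in IMR-90 and 33.3% in SK-MEL-103 after siMFN1, MFN2 at 10.9% and 20.4% after siMFN2, and MAVS at 35.2% and 36.5% after siMAVS. After siMFN1+2 the values were 23.1% and 11.4% for MFN1 and MFN2 in IMR-90 and 41.2% and 23.4% in SK-MEL-103, all called by edgeR. A gene is called, here and below, where its Benjamini-Hochberg adjusted p over all genes tested is under 0.05. Levels are given as CPM, counts scaled to library size by the TMM method over the 48 libraries. All 8 fibroblast markers averaged at least 1 CPM in IMR-90 and 2 of 8 in SK-MEL-103. Of 8 melanocyte markers 2 did in either line, and TYR and MLANA were under 0.1 CPM in both. The summed melanocyte markers ran from 379 to 671 CPM in SK-MEL-103 libraries and from 17.1 to 81.4 CPM in IMR-90. The fibroblast sums ran from 15.4 to 110 and from 5338 to 51270 CPM. Of 10 epithelial, endothelial and leukocyte markers, 1 averaged at least 1 CPM in IMR-90 and 0 in SK-MEL-103.

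Doxorubicin lowered most of the recombination and Fanconi genes in both lines. In IMR-90 on day 7, 35 of 39 members fell and 1, ATM, rose, where 24.4% of the 19077 genes tested fell and 27.4% rose. In SK-MEL-103 30 members fell and 0 rose, beside 30.6% and 29.8% of 17945 genes. In the day 9 DMSO experiment 35 fell and 0 rose, beside 27.1% and 28.8% of 19056 genes. Of members with a positive change, edgeR gave 0 in SK-MEL-103 and 1 on day 9 an unadjusted p under 0.05, and DESeq2 called 0 and 1. The median member changed by -2.15, -1.84 and -2.02 on the log2 scale in these 3 comparisons, against 0.09, 0.03 and 0.10 for all genes tested. A total of 29 members fell in all 3, and 1, the kinase gene ATR, was called in none. The share of all genes that fell in all 3 was not counted.

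**Figure D1:**
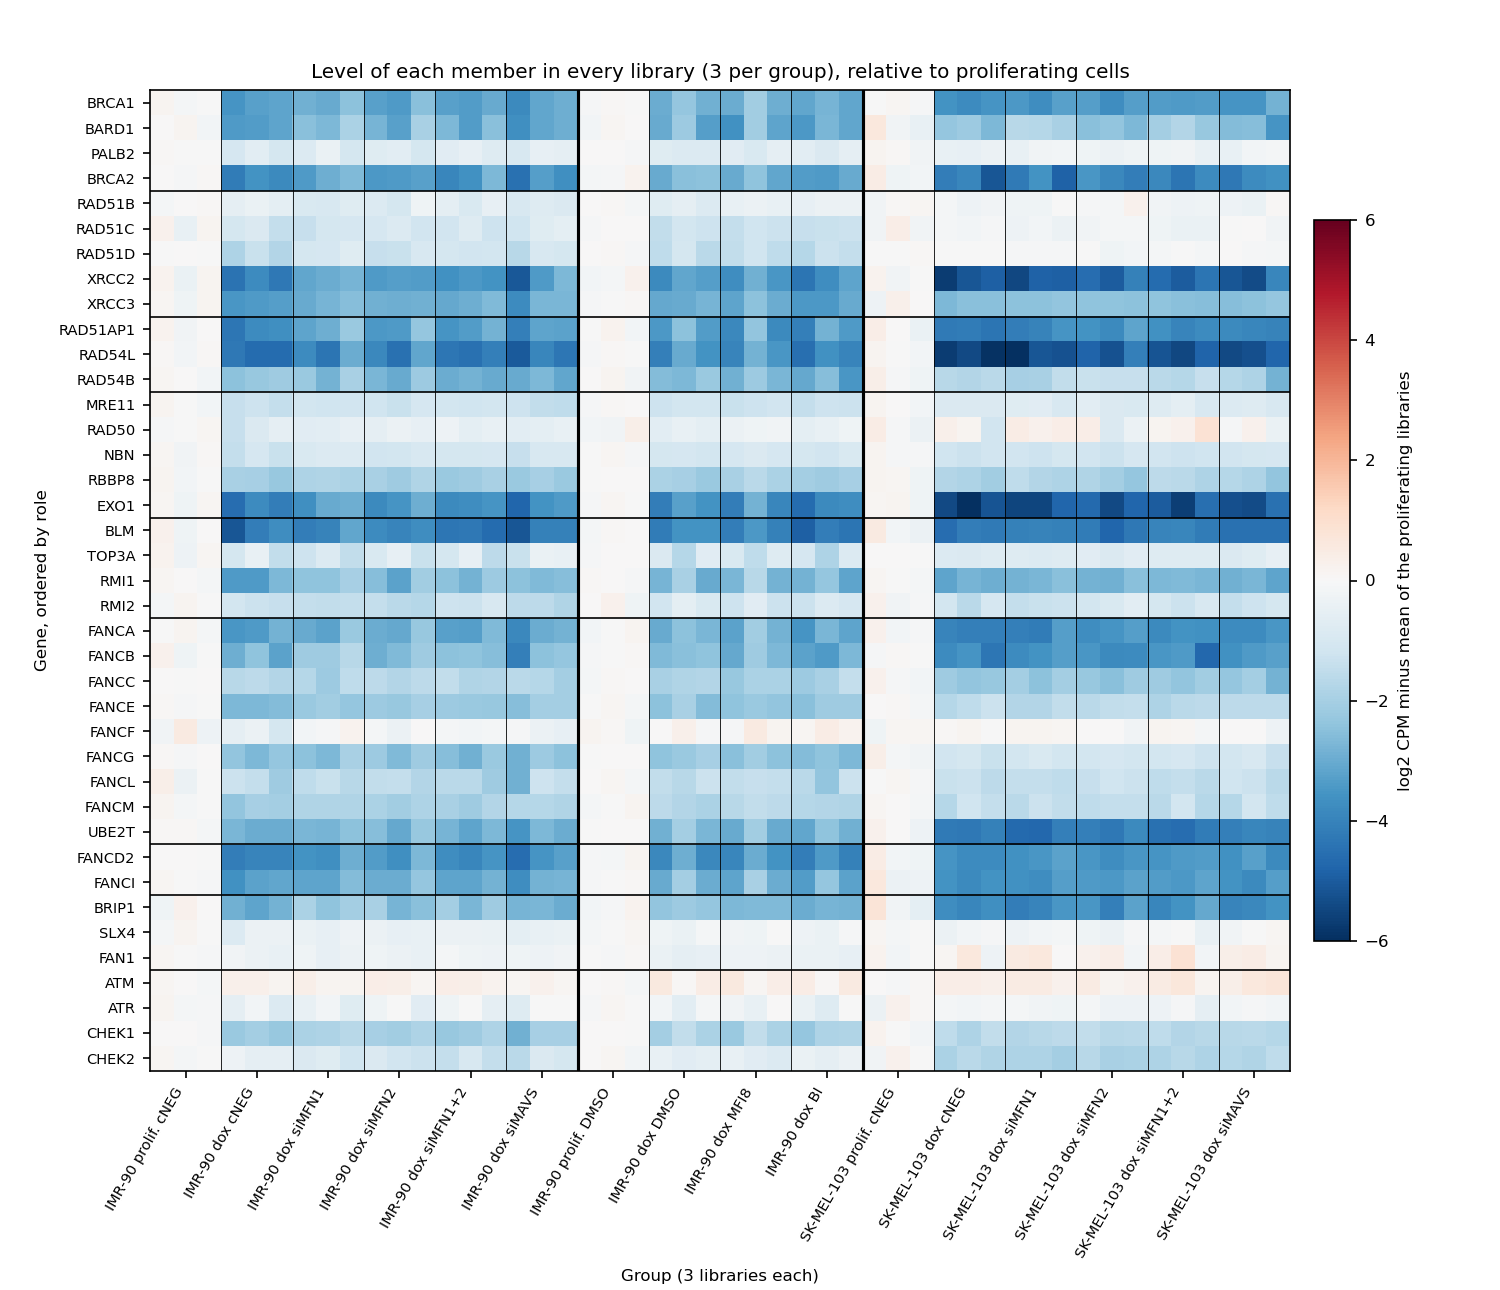
Each row is 1 member, ordered by role, and each column 1 library. Colour gives log2 CPM minus the mean of the 3 proliferating libraries of the same experiment, so blue means lower than in proliferating cells; RAD54L, EXO1, BLM, XRCC2, BRCA2 and FANCD2 are dark in every senescent group, and ATM is pale red.

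The depth of the fall varied from gene to gene. Relative to proliferating cells, 9 members kept less than 10% of their level in IMR-90 on day 7, 5 on day 9 and 13 in SK-MEL-103, while 10, 10 and 12 kept 50% or more. In bulk RNA, fewer cells expressing a gene and less RNA per cell cannot be told apart. The 20 proliferation markers examined moved with these genes: all 20 fell in each of the 3 comparisons, and their summed level went from 4485 to 5468 CPM in proliferating IMR-90 to 382 to 495 CPM after doxorubicin, and from 2972 to 4645 CPM to 332 to 346 CPM in SK-MEL-103. The part of that shift in the members' fall was not tested.

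The genes that load the recombinase fell together, with PALB2 the exception in size. BRCA2 (ENSG00000139618, chromosome 13, 32315474 to 32400266), which carries the recombinase to single-stranded DNA, was at 36.9, 34.9 and 38.8 CPM in the 3 proliferating IMR-90 libraries and at 2.02, 3.09 and 2.60 CPM after doxorubicin. In SK-MEL-103 it went from 19.2, 11.97 and 12.6 to 0.806, 0.950 and 0.402 CPM. The highest senescent library therefore lay far under the lowest proliferating one in either line, and the log2 changes were -3.82 (SE 0.32, adjusted p = 3.24e-07) and -4.37 (SE 0.28, adjusted p = 7.58e-10). BRCA1, the ubiquitin ligase that promotes end resection, changed by -3.30 and -3.74, and its partner BARD1 by -3.29 and -2.57. PALB2, the bridge between BRCA1 and BRCA2, was at 25.6, 24.2 and 24.6 CPM in proliferating and 12.2, 16.2 and 11.9 CPM in senescent IMR-90. In SK-MEL-103 it went from 21.3, 20.1 and 16.8 to 14.3, 13.7 and 15.2 CPM. Its groups did not overlap and it fell in all 3 comparisons, by 0.85 on the log2 scale in IMR-90 on day 7, 0.79 on day 9 and 0.54 in SK-MEL-103.

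Among the 5 recombinase paralogs the members of 1 family behaved unlike each other. XRCC2 (ENSG00000196584, chromosome 7, 152644779 to 152676165) was at 29.9, 19.9 and 29.0 CPM in proliferating and 1.21, 1.88 and 1.34 CPM in senescent IMR-90, and at 19.8, 14.7 and 16.6 and 0.328, 0.475 and 0.557 CPM in SK-MEL-103. Its changes of -4.12 and -5.41 were among the deepest of all members. XRCC3 changed by -3.39 and -2.68, with the limit that 76.7% of its exon length lies opposite exons of KLC1 and the strand setting of the counting is not stated. RAD51B, which spans the widest locus of the family, was at 4.65, 5.05 and 5.21 CPM and then 3.43, 3.75 and 3.32 CPM in IMR-90. Its fall passed the test on day 9 (-0.68, adjusted p = 0.00164) and missed it on day 7 (adjusted p = 0.0526) and in SK-MEL-103 (adjusted p = 0.147). RAD51C and RAD51D fell in IMR-90 only by the test within each line, and the difference between the lines is given further on.

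The recombinase's partners held the deepest change of the set. RAD54L (ENSG00000085999, chromosome 1, 46247688 to 46278473), a motor that moves along DNA with the filament, was at 36.8, 31.6 and 36.6 CPM in proliferating IMR-90 and 1.80, 1.41 and 1.41 CPM in senescent cells. In SK-MEL-103 it went from 40.5, 35.8 and 32.3 to 0.697, 0.832 and 0.588 CPM. The libraries of each group sit close together and the groups are far apart, with 4.40% of the proliferating mean left in IMR-90 and 1.95% in SK-MEL-103. The log2 changes were -4.46 (SE 0.35, adjusted p = 2.03e-07) and -5.76 (SE 0.26, adjusted p = 2.84e-11). RAD51AP1, which helps the recombinase join strands, changed by -3.90 and -4.40. RAD54B, the relative of RAD54L, was at 6.32, 5.93 and 5.08 CPM and then 1.06, 1.17 and 1.30 CPM in IMR-90, and from 5.23, 3.86 and 3.45 to 1.30, 1.23 and 1.33 CPM in SK-MEL-103. It fell in all 3 comparisons, by 2.29, 2.57 and 1.83 on the log2 scale, and 59.1% of its exon length is shared with FSBP on the same strand, so its counts are uncertain.

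Of the end resection genes, the long-range nuclease fell far more than the complex that starts resection. EXO1 (ENSG00000174371, chromosome 1, 241847967 to 241895148) was at 52.3, 40.3 and 52.9 CPM in proliferating and 2.01, 3.50 and 2.71 CPM in senescent IMR-90, a log2 change of -4.12 (SE 0.34, adjusted p = 2.80e-07). In SK-MEL-103 it went from 59.1, 60.1 and 44.6 to 1.27, 0.871 and 1.52 CPM, a change of -5.61 (SE 0.27, adjusted p = 3.90e-11). RBBP8, whose product CtIP licenses the first cut, changed almost equally in the 3 comparisons, by -2.04, -2.02 and -1.99. The MRE11 and NBN subunits of the break-sensing complex fell by 1.34 and 1.22 on the log2 scale in IMR-90 on day 7 and by 0.97 and 1.31 in SK-MEL-103. RAD50, the third subunit, was at 5.41, 5.60 and 6.28 CPM and then 2.17, 3.11 and 3.97 CPM in IMR-90. In SK-MEL-103 it was at 1.10, 0.772 and 0.635 and 1.01, 0.911 and 0.371 CPM, where the groups overlapped. Its fall in IMR-90 was called on day 7 and on day 9 (adjusted p = 0.00144 and 0.0224) and lost under some alternatives.

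In the complex that dissolves joined molecules, the helicase fell and its topoisomerase much less. BLM (ENSG00000197299, chromosome 15, 90717327 to 90816165), the helicase mutated in Bloom syndrome, was at 31.9, 22.1 and 26.9 CPM in proliferating and 0.770, 1.49 and 2.02 CPM in senescent IMR-90. In SK-MEL-103 it went from 38.1, 23.7 and 20.9 to 1.11, 1.52 and 1.39 CPM, and the log2 changes were -4.29 and -4.49. TOP3A, the topoisomerase, was at 88.4, 61.7 and 81.7 CPM and then 36.7, 56.0 and 27.7 CPM in IMR-90, and from 118, 117 and 113 to 66.0, 64.4 and 68.2 CPM in SK-MEL-103. It fell by 0.91 on the log2 scale in either line on day 7, and the IMR-90 libraries were the more scattered. The IMR-90 day 7 call of TOP3A was kept in 9 of 15 alternatives. The scaffold genes RMI1 and RMI2 changed by -3.13 and -1.23 in IMR-90 and by -3.07 and -1.35 in SK-MEL-103.

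The Fanconi core genes and their E2 enzyme fell, FANCF the least. In IMR-90 on day 7 all 9 were called lower, from FANCA at -3.19 to FANCF at -0.63. FANCA (ENSG00000187741, chromosome 16, 89737549 to 89816657) went from 53.1, 60.5 and 50.3 to 4.89, 5.16 and 7.75 CPM in IMR-90 and from 50.9, 37.6 and 39.8 to 2.72, 2.46 and 2.51 CPM in SK-MEL-103, with no overlap in either line. FANCL, the ubiquitin ligase subunit, changed by -1.55 and -1.47, FANCB by -2.77 and -3.90, FANCC by -1.65 and -2.38, and FANCM, the motor that anchors the core to DNA, by -2.11 and -1.53. FANCF, an adaptor of the core, was at 29.0, 38.1 and 38.2 CPM in proliferating and 36.2, 38.6 and 34.1 CPM in senescent SK-MEL-103, where the groups overlapped. In IMR-90 it was lower, at 5.95, 10.1 and 5.59 CPM in proliferating and 4.71, 5.44 and 3.36 CPM in senescent cells, and its change was called on day 7 (adjusted p = 0.0338) and not on day 9 (0.08, adjusted p = 0.740). The day 7 call of FANCF was kept in 8 of 15 alternatives.

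The FANCD2 and FANCI genes, which encode the clamp that the core modifies, fell in every doxorubicin comparison. FANCD2 (ENSG00000144554, chromosome 3, 10026414 to 10101930) was at 46.5, 45.9 and 44.7 CPM in proliferating and 2.54, 2.95 and 2.90 CPM in senescent IMR-90. In SK-MEL-103 it went from 55.2, 36.8 and 33.7 to 3.48, 2.99 and 3.03 CPM. The log2 changes were -4.00 and -3.82, and those of FANCI -3.29 and -3.84. Of the helicase, scaffold and nuclease genes that act after the clamp, BRIP1 fell deeply and SLX4 and FAN1 changed least. BRIP1 (ENSG00000136492, chromosome 17, 61681266 to 61863521), the BRCA1-bound helicase, was at 43.6, 62.1 and 53.0 CPM and then 7.00, 5.85 and 7.41 CPM in IMR-90, and at 38.1, 19.7 and 15.1 and 1.71, 1.49 and 1.73 CPM in SK-MEL-103. SLX4, a scaffold for nucleases, went from 25.2, 30.3 and 27.1 to 15.6, 21.6 and 21.9 CPM in IMR-90, a change of -0.46 (SE 0.13, adjusted p = 0.00900). FAN1, a nuclease that can cut crosslinks, was at 38.5, 35.98 and 33.8 and 31.3, 27.8 and 26.1 CPM in IMR-90 and at 30.4, 23.7 and 26.4 and 29.3, 40.9 and 21.9 CPM in SK-MEL-103. Its fall was called in IMR-90, by 0.31 on day 7 and 0.47 on day 9, and in SK-MEL-103 the groups overlapped and the change was 0.10 (adjusted p = 0.731). The day 7 call of FAN1 in IMR-90 was kept in 9 of 15 alternatives.

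The 4 checkpoint kinases split. CHEK1, which acts on replication stress, changed by -2.15 (SE 0.19, adjusted p = 5.99e-07) in IMR-90 and -1.72 (SE 0.12, adjusted p = 2.33e-09) in SK-MEL-103. ATM (ENSG00000149311, chromosome 11, 108222484 to 108369102), the kinase that responds to breaks, was at 52.6, 49.5 and 45.2 CPM in proliferating and 61.1, 61.3 and 54.9 CPM in senescent IMR-90. On day 9 it was at 51.2, 52.0 and 45.8 and 73.8, 52.6 and 66.6 CPM, and in SK-MEL-103 at 53.5, 49.4 and 54.9 and 68.6, 68.6 and 64.7 CPM. Every senescent library lay above every proliferating one in each of these comparisons, as did 28.5%, 31.7% and 35.7% of the genes tested on day 7, on day 9 and in SK-MEL-103. The change of 0.30 in IMR-90 on day 7 was called (adjusted p = 0.0260), kept in 7 of 15 alternatives, and those of 0.38 and 0.26 were not (adjusted p = 0.0742 and 0.104). ATR, the kinase for single-stranded DNA, was at 64.5, 52.8 and 54.5 and 38.7, 51.2 and 32.6 CPM in IMR-90, with no call in any comparison.

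**Figure D2:**
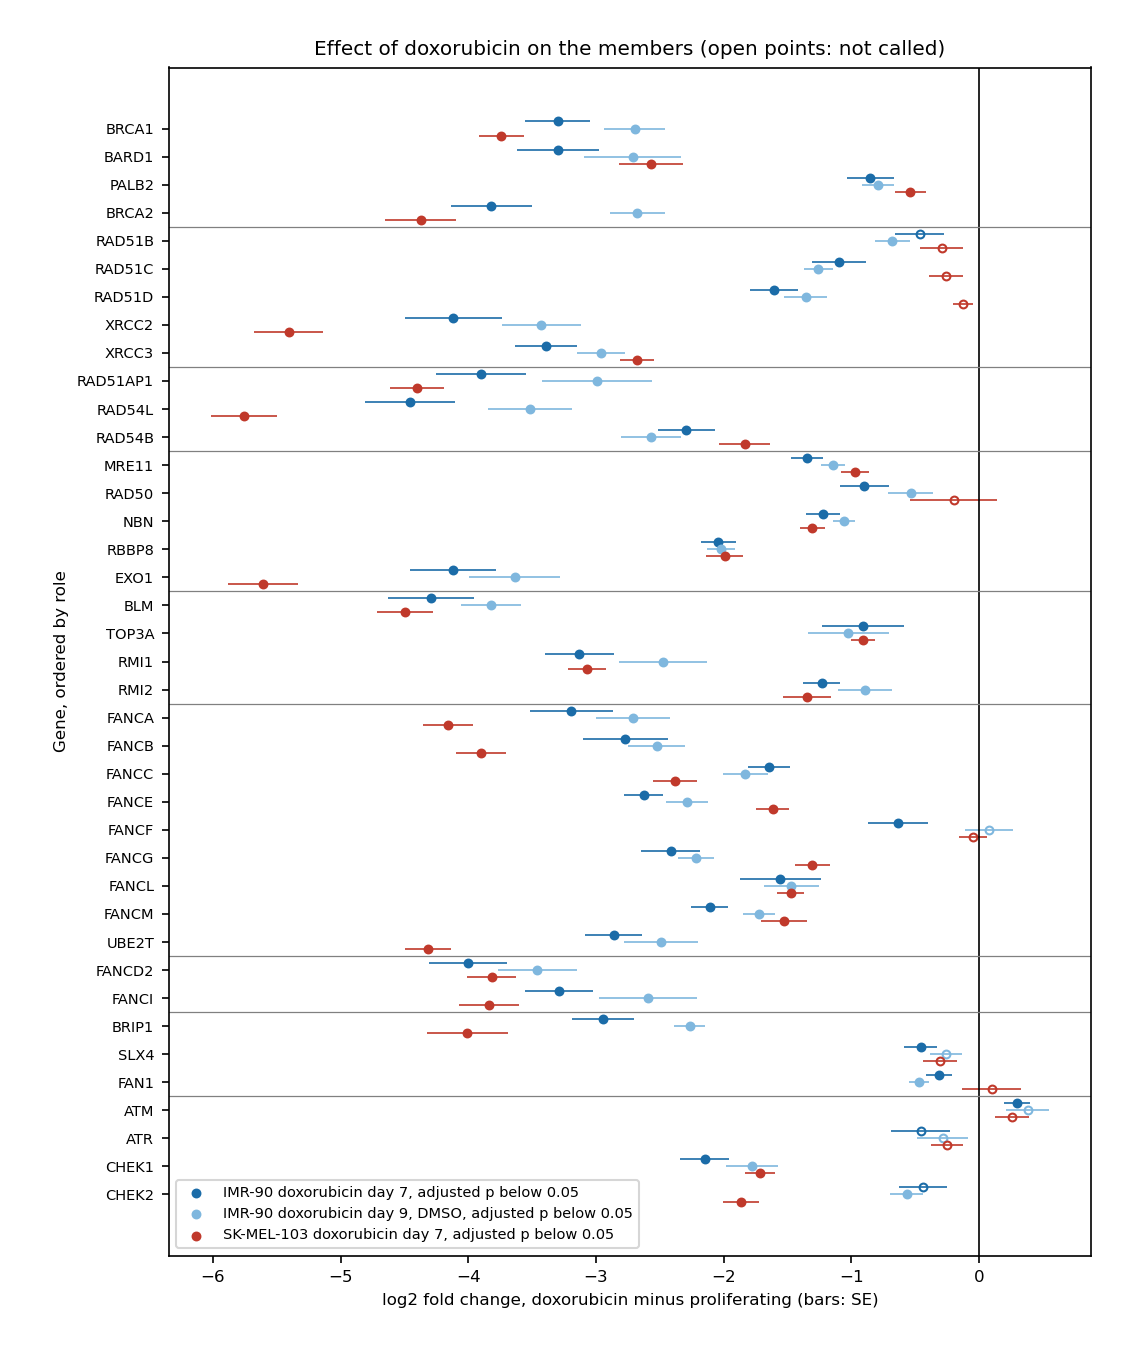
The horizontal axis is the log2 fold change, doxorubicin minus proliferating, with its SE, for the 39 members in 3 comparisons; filled points have an edgeR adjusted p below 0.05. RAD54L reaches -5.76 in SK-MEL-103, ATM lies right of 0 in all 3 comparisons, and RAD51D, RAD51C and FANCF are near 0 in SK-MEL-103.

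The size of the fall differed between the lines for 10 of 39 members, a share near the 22.2% of all genes called, so the count says nothing particular to the members. The test of the difference, SK-MEL-103 minus IMR-90, called 7 members higher and 3 lower, where 13% and 9.16% of 20892 genes were called. With a replicate block nested in the line the split was 8 higher and 5 lower, beside 3436 and 2253 of 21548 genes. For doxorubicin on day 7 the replicate numbers did not pair the libraries in either line. With RLE scaling the split was 4 higher and 7 lower (9.06% and 12% of genes), and with DESeq2 4 higher and 8 lower (10.1% and 13.5%), while the median difference of all genes moved from 0.03 to -0.13 under either. RAD51C, RAD51D, FANCE, FANCG, UBE2T and CHEK2 kept their call and direction in all 17 alternatives run, and XRCC3, FANCM, MRE11 and EXO1 did not. RAD51D (ENSG00000185379, chromosome 17, 35092208 to 35121522) was at 22.0, 22.7 and 21.8 CPM in proliferating IMR-90 and 6.13, 8.76 and 6.45 CPM after doxorubicin. In SK-MEL-103 it was at 24.1, 24.4 and 25.8 CPM before and 24.0, 24.3 and 24.4 CPM after, so the melanoma groups overlapped, while every senescent fibroblast library lay below every proliferating one. The difference was 1.57 (SE 0.19, adjusted p = 2.20e-06). RAD51C, its partner in a paralog complex, went from 25.4, 15.8 and 23.9 to 10.2, 11.5 and 7.98 CPM in IMR-90 and from 11.3, 17.4 and 11.3 to 11.8, 11.6 and 12.4 CPM in SK-MEL-103, a difference of 0.94 (SE 0.25, adjusted p = 0.00826).

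FANCE and FANCG, subunits of the Fanconi core, fell in both lines and less in SK-MEL-103. FANCE went from 30.3, 27.5 and 28.8 to 4.48, 4.48 and 4.81 CPM in IMR-90 and from 24.4, 25.5 and 22.4 to 7.36, 8.30 and 9.84 CPM in SK-MEL-103, a difference of 1.11 (SE 0.19, adjusted p = 8.60e-05). FANCG went from 47.6, 43.6 and 46.0 to 8.81, 7.16 and 9.24 CPM and from 46.9, 33.8 and 31.3 to 16.6, 17.5 and 14.4 CPM, a difference of 1.21 (SE 0.26, adjusted p = 0.00132). In these genes the proliferating means were somewhat lower in SK-MEL-103, and every senescent library there lay above every senescent IMR-90 library. UBE2T (ENSG00000077152, chromosome 1, 202331657 to 202341980) started higher in SK-MEL-103, at 102, 87.8 and 70.1 CPM against 45.2, 45.8 and 40.2 CPM in IMR-90. It ended at 4.52, 4.34 and 5.17 CPM in SK-MEL-103 and 6.55, 5.495 and 5.61 CPM in IMR-90, a difference of -1.36 (SE 0.27, adjusted p = 0.000650). CHEK2 (ENSG00000183765, chromosome 22, 28687743 to 28742422), the kinase downstream of ATM, was at 16.6, 13.8 and 15.02 and then 12.1, 10.2 and 10.3 CPM in IMR-90 and at 11.01, 14.8 and 12.2 and then 3.43, 4.12 and 3.62 CPM in SK-MEL-103. It fell further in the melanoma line, by a difference of -1.33 (SE 0.24, adjusted p = 0.000178), with the limit that the genome holds pseudogene copies of CHEK2. The differences of XRCC3 (0.81, adjusted p = 0.0216), FANCM (0.68, 0.0303), MRE11 (0.47, 0.0379) and EXO1 (-1.39, 0.0222) were less firm. The proliferation markers differed too: 9 of 20 were called further down in SK-MEL-103 and 1 less far, with MKI67 at 11.1 to 37.0 CPM in senescent IMR-90 and 0.164 to 0.990 CPM in senescent SK-MEL-103. The part of this in the members' differences was not tested.

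**Figure D3:**
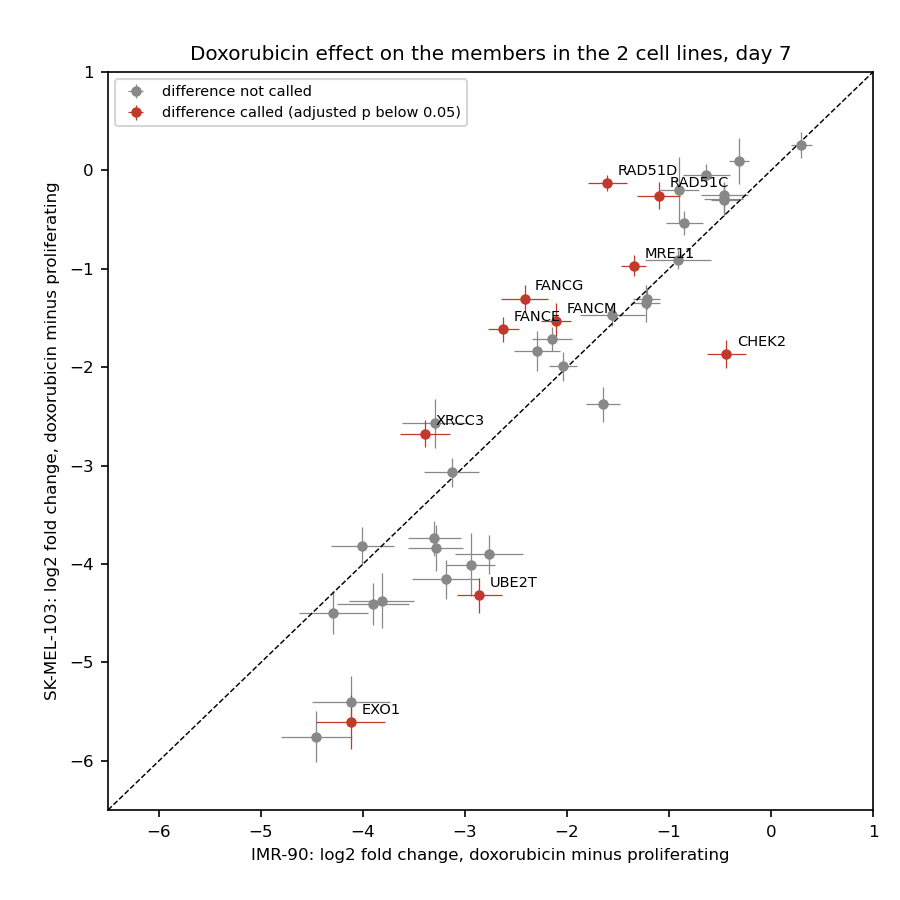
Each point is 1 member with its log2 fold change after doxorubicin in IMR-90 (horizontal) and SK-MEL-103 (vertical), bars are SE and the dashed line marks equal change. Points in red are the 10 whose difference was called; RAD51D is at -1.60 and -0.13, and CHEK2 at -0.44 and -1.87.

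Per length the levels spread widely before treatment. In CPM per kilobase of exon, proliferating IMR-90 had UBE2T highest at 26.5, NBN at 18.7 and FANCI at 15.96, and RAD51B and RAD50 lowest at 0.664 and 0.590. Proliferating SK-MEL-103 had UBE2T highest at 52.4 and RAD50 lowest at 0.0855. In senescent SK-MEL-103 the order changed, with FANCF and TOP3A at the top, at 12.3 and 10.2, and BRCA2 lowest at 0.0586. The exon length is the union over GENCODE 29 transcripts, which understates genes whose cells use short forms.

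**Figure D4:**
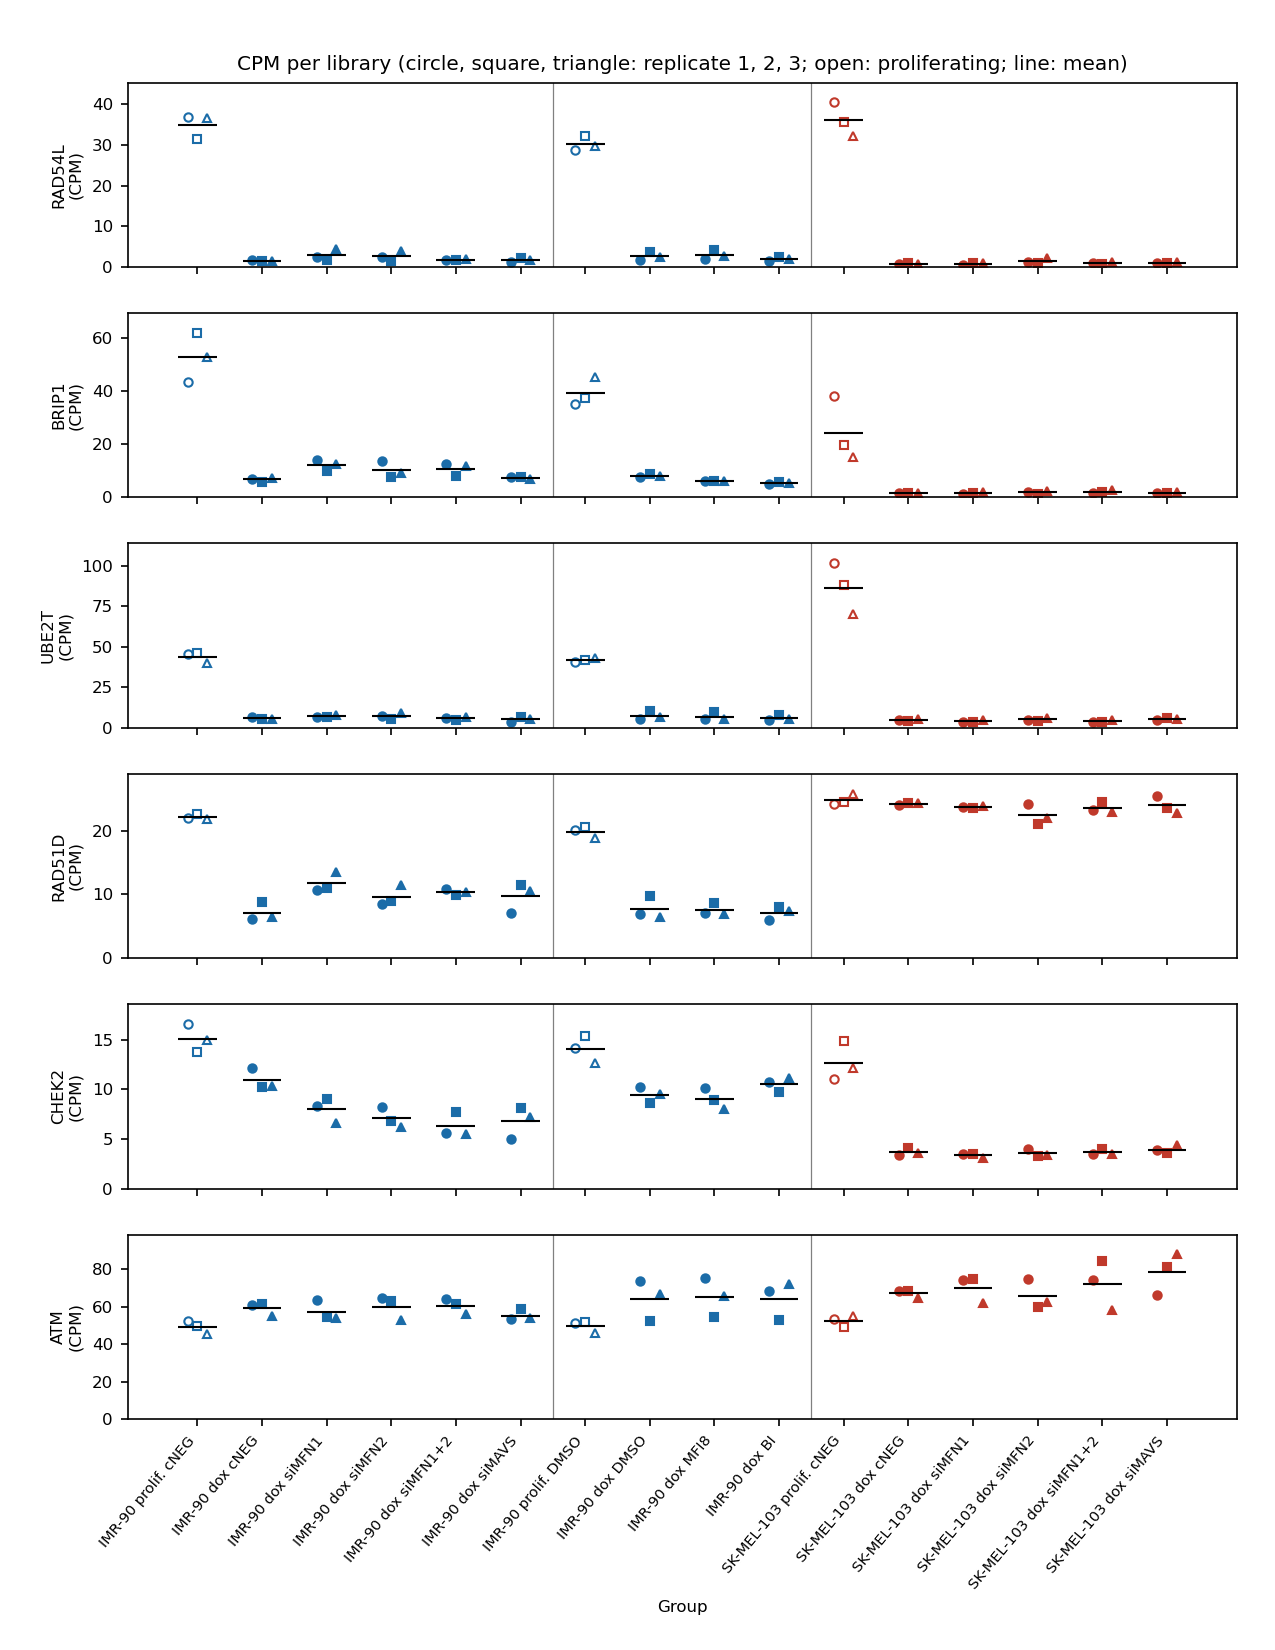
CPM of 6 members in every library of the 16 groups, with a line at each group mean; blue is IMR-90, red SK-MEL-103, open symbols proliferating. RAD51D stays between 21.0 and 25.8 CPM in all SK-MEL-103 libraries and falls in IMR-90, and CHEK2 is lowest in senescent SK-MEL-103.

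Other genes of the same pathways mostly fell as well. Of 28 further recombination and Fanconi genes, 21 fell and 0 rose in IMR-90 on day 7, 19 fell and 4 rose in SK-MEL-103, and 23 fell and 0 rose on day 9. CLSPN, the adaptor that lets ATR activate CHEK1, changed by -3.92 and -5.66, and POLQ, the polymerase of an alternative end joining route, by -3.74 and -4.73. ZSWIM7 and FAAP100 rose in SK-MEL-103, by 0.70 and 0.43 on the log2 scale. Their median was -1.33 in IMR-90 and -0.58 in SK-MEL-103. Among 20 end joining and 53BP1 pathway genes 15 fell and 1 rose in each line, with medians of -1.04 and -0.90, and TP53BP1, which holds back resection, rose by 0.38 and 0.19. Of 20 excision and mismatch repair genes 11 fell and 2 rose in IMR-90 and 8 fell and 4 rose in SK-MEL-103, where 24.4% and 27.4% of all genes fell and rose in IMR-90 and 30.6% and 29.8% in SK-MEL-103. MSH6, which takes part in recognising mismatches, fell (-2.08 in IMR-90), and ERCC5, a nuclease of excision repair, rose (0.50 and 0.63). Of the exon length of ERCC5, 63.2% is shared with other genes on the same strand, and 28.7% of that of TP53BP1 lies opposite exons of TUBGCP4. The counts of these 2 genes are therefore uncertain.

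The regulators that are known to time these genes changed as well. Of 19 E2F, RB and DREAM complex genes 14 fell and 0 rose in IMR-90, and 15 fell and 2 rose in SK-MEL-103. The activator E2F2 changed by -5.05 and -8.87, and E2F8 by -4.71 and -6.27. RBL2, the pocket protein of the DREAM repressor, and its partner LIN37 rose in SK-MEL-103, by 0.59 and 0.80. The exons of LIN37 overlap other genes over 41.8% of their length on the opposite strand and 26.7% on the same strand. Those of RBL2 do so over 18.2% on the opposite strand, so both counts are uncertain. The arrest gene CDKN1A rose by 2.65 and 1.95.

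Promoter letters were then set beside the falls, as a description. In the 300 bases from 250 before to 50 after the start, read on both strands, the E2F words TTTGGCGC, TTTCCCGC, TTTGCCGC and TTTCGCGC occurred in 5 of 35 members with an entry (14.3%) and in 3.31% of 35116 promoters of this length. Each member was searched at its first listed start only, whereas the 35116 are all listed promoters. The shares here and below are therefore not strictly like for like. The 5 are XRCC2, EXO1, FANCA, FANCC and FANCD2, and their median change was -4.00 in IMR-90 and -4.16 in SK-MEL-103, against -2.08 and -1.57 for the other 30. Adding TTCCCGCC, a choice made after these sequences and values had been seen, gave 12 members (34.3%, against 5.58% of promoters). All 12 fell in all 3 comparisons, with a median of -3.65 in IMR-90 and -4.08 in SK-MEL-103. The 23 without such a word at the start searched had medians of -1.61 and -1.31, and include BRCA1, BRCA2 and BARD1, which fell deeply. For BRCA1 the stretch searched (chromosome 17, 43170278 to 43170577) lies wholly outside the gene as annotated, which ends at 43170245. Starts within the annotated BRCA1 gene were not searched, so whether they carry an E2F word was not tested. CCAAT occurred in 15 members (42.9%, against 34.6% of promoters), and TTTGAA or TTCGAA in 4 (11.4%, against 16.4%). Members with CCAAT also had the lower medians, -2.86 in IMR-90 on day 7 and -2.68 in SK-MEL-103. Those without it had -1.84 and -1.54, so a deeper fall was not particular to the E2F words. Of the printed windows, RAD54L and FANCC carry an E2F word and changed by -4.46 and -1.65 in IMR-90. The printed window of BRIP1 carries CCAAT and no E2F word, and BRIP1 changed by -2.94, more than FANCC. BRIP1 is still among the 12, by a TTCCCGCC match that begins 1 base after the start, outside that window. RAD51C and FAN1 carry neither word and changed by -1.10 and -0.31. A match is a string of letters and was not tested for binding.

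Silencing MFN1 in senescent IMR-90 gave 30 of 39 members a value above the senescent control. The share of all genes above it was not counted, and their median change was near 0. No member passed the test without the replicate block. In that fit 0 of 39 were called by edgeR in any of the 4 siRNA comparisons of IMR-90, where 1.58%, 0.225%, 1.57% and 0.634% of genes were called for siMFN1, siMFN2, siMFN1+2 and siMAVS. At an unadjusted p under 0.05 there were 17, 12, 7 and 7 members, beside 2999, 2569, 3124 and 2875 of 19077 genes. DESeq2 called 4, 0, 1 and 1 members, beside 4.52%, 1.78%, 4.54% and 3.02% of genes. The median member stood at 0.36, 0.18, 0.17 and 0.09 on the log2 scale, with medians near 0 for all genes. Leaving out 1 library moved 3 of these by over 1.5 times: siMFN2 to 0.34 and siMFN1+2 to 0.26 without control library 2, siMFN2 to 0.27 without its library 2, and siMAVS to 0.29 without its library 1, 0.03 without its library 2 and 0.05 without its library 3. These 4 comparisons share the same 3 control libraries, so their values are not independent. In siMFN1, 19 members had libraries that were all above the controls and 3 all below, where 9.37% and 9.44% of genes did.

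Same-numbered libraries deviated together in the siMFN1, siMFN2 and siMFN1+2 comparisons of IMR-90, so a block for the replicate number was used. The blocked fit of the senescent groups also holds siMAVS, where same-numbered libraries did not pair (correlations of 0.0305, 0.424 and -0.436). Library 3 of siMAVS has library number 35, and library 3 of the control has 89. In this blocked fit siMFN1 raised 7 members, beside 7.38% of genes called either way. BARD1, the partner of BRCA1, was at 3.14, 3.23 and 3.78 CPM in the controls 1 to 3 and 5.97, 5.09 and 8.91 CPM with siMFN1, a blocked change of 0.92, SE 0.23, adjusted p = 0.0372. RAD51AP1 was at 1.65, 2.40 and 2.56 and 3.71, 4.36 and 6.94 CPM (1.14, SE 0.21, adjusted p = 0.0118). EXO1 was at 2.01, 3.50 and 2.71 and 3.77, 5.92 and 6.34 CPM (0.93, SE 0.22, adjusted p = 0.0299). All libraries with siMFN1 lay above all controls in these genes, and all stayed far below the proliferating level. RMI1, a scaffold of the BLM complex, was at 3.59, 3.48 and 5.69 and 7.02, 7.08 and 9.40 CPM (0.90, SE 0.19, adjusted p = 0.0188). BRIP1, the BRCA1-bound helicase, was at 7.00, 5.85 and 7.41 and 13.9, 9.86 and 12.6 CPM (0.84, SE 0.18, adjusted p = 0.0192). RAD51D was at 6.13, 8.76 and 6.45 and 10.7, 10.9 and 13.5 CPM (0.71, SE 0.18, adjusted p = 0.0347). These libraries again did not overlap the controls. NBN, at 42.9, 57.0 and 45.0 and 60.6, 64.0 and 65.2 CPM, had the smallest of the 7 changes (0.39, SE 0.10, adjusted p = 0.0456). With the block over all 6 groups, where 3.8% of genes were called, the count was 3, namely RAD51D, RAD51AP1 and RMI1.

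With siMFN1+2, the same fit raised BRIP1 (12.6, 7.89 and 11.9 CPM, 0.65, SE 0.18, adjusted p = 0.0499) and lowered CHEK2, beside 6.66% of genes called. CHEK2 was at 12.1, 10.2 and 10.3 CPM in the controls and 5.60, 7.76 and 5.53 CPM with siMFN1+2 (-0.80, SE 0.20, adjusted p = 0.0360), and it was at 8.33, 9.03 and 6.61 CPM with siMFN1, 8.18, 6.80 and 6.25 CPM with siMFN2 and 4.98, 8.14 and 7.19 CPM with siMAVS. Each of these libraries lay below each control, and without the block its adjusted p was 0.0607 with siMFN1+2, 0.282 with siMFN1, 0.177 with siMFN2 and 0.101 with siMAVS. The fit called 0 members for siMFN2, where 2.67% of genes were called. Without the block 12 members and 2569 of 19077 genes had an unadjusted p under 0.05 by edgeR. For siMAVS the numbers did not pair the libraries. Proliferation markers also had higher values: with siMFN1 all 20 had positive values, 0 called, at a median of 0.56, and their summed level was 532 to 898 CPM against 382 to 495 CPM in the controls. MKI67 ran from 34.9 to 110 CPM with siMFN1 and from 11.1 to 37.0 CPM in the controls. Their part in the members' rise was not tested.

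In senescent SK-MEL-103 the siRNA comparisons gave small medians and few calls. No member was called by edgeR without the block for siMFN1, siMFN2, siMFN1+2 or siMAVS, where 0.123%, 0.0669%, 0.24% and 0.1% of genes were called. DESeq2 called 0 members. At an unadjusted p under 0.05 edgeR gave 1, 3, 1 and 0 members, beside 1028, 615, 738 and 650 of 17945 genes. The medians were 0.10, 0.10, 0.13 and 0.09. The siMFN1 median was 0.02 without its library 3 and 0.05 without its library 2, and the siMAVS median was 0.04 without its library 2 and 0.14 without its library 1. With the block in the senescent groups, BARD1 rose after siMFN1, from 4.60, 5.01 and 3.56 to 7.27, 6.96 and 5.89 CPM (0.62, SE 0.12, adjusted p = 0.0118), beside 4.11% of genes called. It was at 4.07, 4.40 and 3.50 CPM with siMFN2 and 5.58, 6.81 and 4.82 CPM with siMFN1+2, with no call in that fit. The siMFN2 values with the block leave out library 1, whose title has no number. RAD51D, which rose after siMFN1 in IMR-90, was at 23.6, 23.5 and 23.9 CPM in SK-MEL-103, and the difference between the lines was -0.73 (SE 0.20, adjusted p = 0.145), not called, as for all but 0.153% of genes. By DESeq2 that difference passed, at an adjusted p of 0.0318, beside 0.833% of genes. No other member differed between the lines in an siRNA effect by either tool. At an unadjusted p under 0.05 edgeR gave 3, 6, 3 and 3 members, beside 1931, 1295, 1854 and 1610 of 20892 genes.

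**Figure D5:**
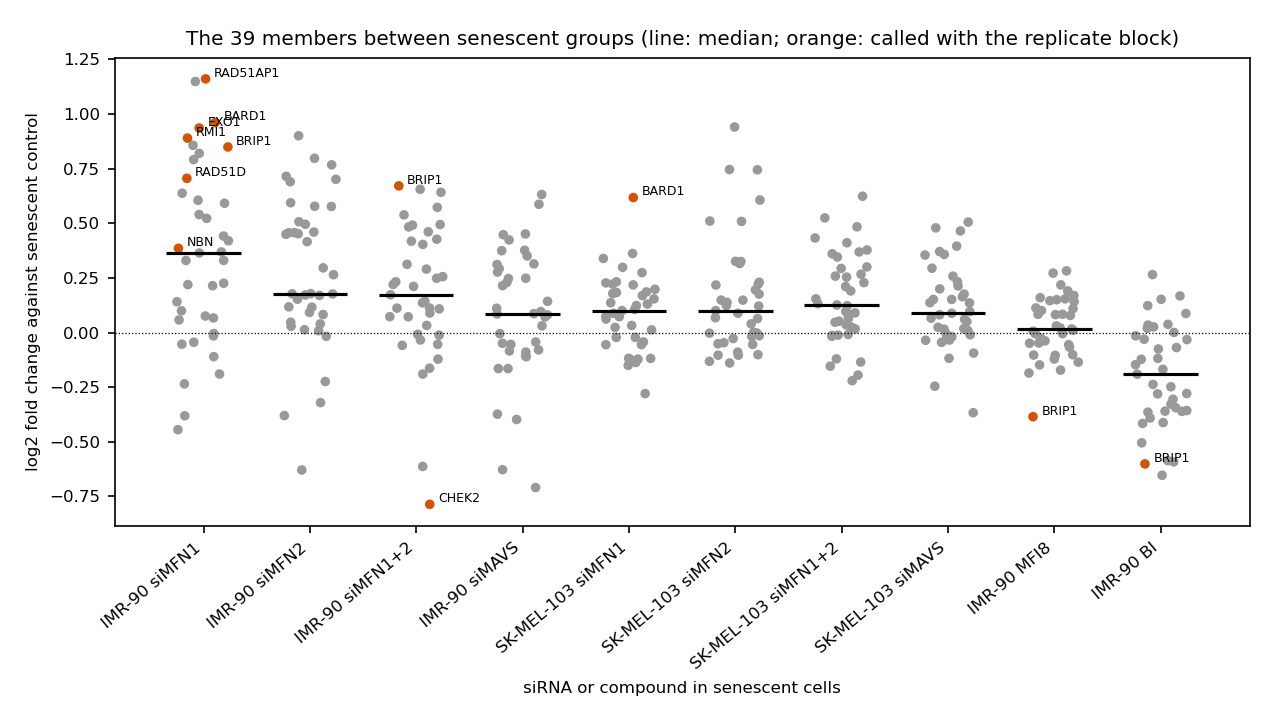
Each point is 1 of the 39 members, the vertical axis its log2 fold change against the senescent control without the block, and the line the median. Members in orange were called in the fit of the senescent groups with the replicate block; 7 are labelled for siMFN1 in IMR-90, where the median is 0.36, and the SK-MEL-103 medians lie between 0.09 and 0.13.

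No member was called for a compound without the replicate block. Against DMSO on day 9, edgeR without the block called 0 members, and 0% of all 19056 genes, for MFI8, for BI and for MFI8 against BI. At an unadjusted p under 0.05 there were 1, 5 and 3 members and 371, 175 and 326 genes, and DESeq2 called 0 members and 1, 0 and 0 genes. The median member stood at 0.02 with MFI8 and -0.19 with BI, and single libraries decided both. The MFI8 median was -0.20 without MFI8 library 2, -0.10 without DMSO library 1, 0.05 without DMSO library 3, 0.13 without MFI8 library 1 and 0.13 without DMSO library 2. The BI median was -0.02 without DMSO library 2, -0.06 without BI library 1 and -0.29 without DMSO library 1. The 95% intervals, from the SE on 8 residual degrees of freedom, lay within 1 log2 unit of 0 for 38 members with MFI8 and 26 with BI, and the lowest bound was -1.19 with MFI8 and -1.44 with BI. Same-numbered libraries deviated together here too. With the block over all groups of the experiment, 0 genes were called for either compound. With the block in the senescent groups BRIP1 fell with each compound, beside 3.02% and 1.25% of genes called. It was at 7.67, 8.75 and 7.93 CPM in DMSO, 6.11, 6.24 and 6.25 CPM with MFI8 and 4.89, 5.72 and 5.48 CPM with BI, so the 3 groups did not overlap. The blocked change was -0.38 (SE 0.09, adjusted p = 0.0301) with MFI8 and -0.61 (SE 0.09, adjusted p = 0.00309) with BI, from the same DMSO libraries.

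MFI8 and BI were given at different doses, 20 and 10 µM, so their contrast compares these treatments as given. With the block over all groups it called 0 genes. With the block in the senescent groups it called 3 members higher with MFI8, beside 3.51% of genes. RAD54L was at 1.93, 4.23 and 2.71 CPM with MFI8 and 1.32, 2.44 and 1.92 CPM with BI (0.64, SE 0.14, adjusted p = 0.0244). FANCA was at 5.60, 12.4 and 7.45 and 4.47, 7.76 and 5.87 CPM (0.48, SE 0.11, adjusted p = 0.0354). FANCI was at 13.9, 32.2 and 15.5 and 12.3, 24.7 and 13.4 CPM (0.27, SE 0.07, adjusted p = 0.0424). The groups overlap in all 3 genes, and library 2 is the highest of each group in each of them, so the call rests on the differences within numbers. All 20 proliferation markers had negative values with BI against DMSO, 0 called, at a median of -0.37, and 18 of 20 were positive with MFI8 against BI, at a median of 0.30. Their part in these differences was not tested.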

How the data were processed

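Messenger RNA from 48 libraries was prepared with a stranded kit, per the labels' protocols. The deposited values are raw read counts per gene that the authors made with Trim Galore 0.6.7, STAR 2.7.10a and featureCounts on GRCh38, per the submitters' processing notes. The annotation release, the strand setting and the treatment of reads with several matches are not given in the sources used here. Symbols were joined by Ensembl identifier, and genes without one held 0.122% of counts.

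The quasi-likelihood test of edgeR 4.0.16 (R 4.3.3, with filterByExpr and TMM) was fitted to the counts over all groups of an experiment without a block, and adjusted over all genes tested. DESeq2 1.42.0, other scalings, filters, subsets, blocks and leaving out each library were alternatives. The code was tested on simulated data. All 39 members are reported, with library values where they were called between senescent groups or were extremes of their role. Other genes named are the siRNA targets, MKI67, CDKN1A and the extremes of each list, of which some are not reported here. Members and lists were chosen with earlier results of these data known, and the current edgeR fit was preferred to its legacy form after the counts from both had been seen.

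Replicate numbers come from the sample titles. They were taken as pairs where, over 8000 genes, each of 3 same-numbered pairs had deviations from the group means correlated above 0.1. This held in 10 comparisons, with correlations of 0.436 to 0.755 for siMFN1 in IMR-90 and 0.887 to 0.965 for BI, and not for doxorubicin on day 7 in either line or siMAVS in IMR-90. For siMFN2 in SK-MEL-103 only 2 pairs carry numbers.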

Additional observations from a re-analysis of the deposited data

Results flagged for a closer look

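For 10 members the response to doxorubicin differed between the lines by the test of the difference itself, SK-MEL-103 minus IMR-90 (edgeR adjusted p below 0.05). Over all genes 22.2% were called, so 10 of 39 is near the background. The values were 1.57 for RAD51D, 1.21 for FANCG, 1.11 for FANCE, 0.94 for RAD51C, 0.81 for XRCC3, 0.68 for FANCM and 0.47 for MRE11 on the log2 scale, where the fall was smaller in SK-MEL-103. They were -1.39 for EXO1, -1.36 for UBE2T and -1.33 for CHEK2, where it was larger. XRCC3 kept its call in 11 of 17 alternatives, FANCM in 9, MRE11 in 5 and EXO1 in 15. No group was examined for a library far from the others, since each holds 3. The RLE, DESeq2 and nested-block splits stand with the comparison above.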

How the results depend on the processing

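Of the members called after doxorubicin, 30 of 36 kept their call in all alternatives in IMR-90 on day 7, 34 of 35 on day 9 and 30 of 30 in SK-MEL-103, and none changed direction. Leaving out 1 library at a time gave 33 to 36, 34 to 36 and 30 to 32 called members, and 7 to 11 for the difference between the lines.

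Between senescent groups the count of 0 members moved with the fit, and the cause was not tested. With the replicate block in the senescent groups it was 7 for siMFN1 and 2 for siMFN1+2 in IMR-90, 1 for siMFN1 in SK-MEL-103, 1 for MFI8, 1 for BI and 3 for MFI8 against BI. With the block over all groups it was 3 and 1 for siMFN1 and siMFN1+2 in IMR-90. With only the pair of groups and the block, added after seeing the data, it was 11, 8 and 5 for siMFN1, siMFN2 and siMFN1+2 in IMR-90 (17.9%, 14.8% and 18% of genes), 3, 3 and 5 in SK-MEL-103 (19%, 4.46% and 8.49%) and 5 for BI (3.84%), with the unnumbered siMFN2 library of SK-MEL-103 left out. DESeq2 gave 4, 1 and 1 for siMFN1, siMFN1+2 and siMAVS in IMR-90, and 1 for the difference between the lines in siMFN1. A term for the ranges of library numbers in the labels gave 2, 1 and 1 for siMFN1, siMFN1+2 and siMAVS (3.72%, 3.6% and 3.11% of genes). Leaving out 1 library gave 0 to 1 for siMFN1 and for siMAVS in IMR-90 and for the difference in siMFN1. RAD51D was the member called without control library 2 of IMR-90, and FANCE without siMAVS library 1. Over all genes, siMFN1 in IMR-90 had 302 calls, 863 with DESeq2 and 206 with the legacy fit. With the replicate block in the senescent groups, calls over all genes went from 302 to 1421, 43 to 514, 300 to 1281 and 121 to 913 for siMFN1, siMFN2, siMFN1+2 and siMAVS in IMR-90. For siMAVS in IMR-90 the numbers did not pair the libraries. In SK-MEL-103 the calls went from 22 to 732, 12 to 44, 43 to 261 and 18 to 86. MFI8, BI and MFI8 against BI had 0 without the block and 569, 235 and 663 with it. With the block over all groups of the compound experiment each of these comparisons had 0. In no other comparison did the block move the count of members by over 1.5 times.

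Depth limits the low genes most: the fewest counts of a member in a library were 8. Among the members, exons shared with a gene on the other strand (at least 10% of the length in XRCC3, RAD54L, FAN1, FANCA, FANCL, ATR and FANCF) and pseudogene copies (CHEK2, FANCD2, RAD51AP1, MRE11, RBBP8) make those counts uncertain.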
